A study of Mus musculus with 18 samples.

Results

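Nuclear receptors are transcription factors that bind DNA through a zinc finger domain, and many of them are switched by a small lipophilic ligand. Receptors for retinoic acid, thyroid hormone, vitamin D and steroids belong to the family, as do orphan receptors that act without a known natural ligand or, like the NR4A group, mainly through how much of them is made. The genes described here are the members of the mouse family outside the retinoic acid, RXR, PPAR and LXR receptors. They were chosen by name, from a list of 35 symbols, and 34 of the 35 had a probe set of their own. Nr2e3 had none and is not analysed here. The 34 genes stand among 22180 genes measured. For a gene with several probe sets, the one with the highest mean over the 18 arrays was used, which among these genes concerned only Nr3c2.

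The cells were NaF, a mouse mammary carcinoma line, profiled on Affymetrix arrays in 6 groups of 3. All-trans retinoic acid, the natural ligand of the retinoic acid receptors (RAR), TTNPB, a synthetic RAR agonist, and GW1516, a synthetic PPARδ agonist, were each given at 1 µM for 6 hours to cells that had been in 10% charcoal-treated FBS since 48 hours before treatment. Their shared control was cells in the same stripped serum without a ligand. Palmitate, a saturated fatty acid, was given at 10 µM for 6 hours in full medium with 10% FBS, and its control was untreated cells in full medium. Every group is the same single cell line, no vehicle is named for the controls, and the labels do not say whether the arrays of a group came from separate cultures, so the tests rest on the variation among these arrays alone, part or all of which may be technical.

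Values are log2 expression values as the authors deposited them. The array medians over genes lay between 1.19 and 1.49 in the charcoal serum set and between 0.55 and 0.60 in the full medium set, so levels are set only against arrays of the same serum. GW1516 replicate 3 stood apart, with a mean distance of 0.231 from its group's mean, against 0.0816 to 0.145 on the other 17 arrays. Where it ended or made a call of any of the 34 receptor genes, the value without it is given. The same was done where it moved by over 1.5 times a difference printed for a gene given array by array. Of 24 measured markers of epithelium and other cell types, 10 were above background in all 6 groups. These were the luminal epithelial genes Krt8, Krt18, Cdh1 and Cldn4, the mammary genes Gata3 and Erbb2, the mesenchymal genes Vim and Pdgfra, the macrophage gene Cd68 and the endothelial cadherin gene Cdh5. Cldn4 and Cd68 were close to the background defined below. Cldn4 read 1.26 with retinoic acid against a background of 1.15, and Cd68 read 1.46 with GW1516 against 1.29. The mammary genes Elf5 and Foxa1, the basal keratin gene Krt14, the endothelial gene Pecam1, the T cell gene Cd3e and the adipocyte gene Adipoq were under background in every group. The luminal genes Krt19 and Epcam, the basal gene Acta2 and the fibroblast gene Col3a1 were above it in some groups only. The fibroblast collagen gene Col1a1 was above it only in full-medium controls. The basal gene Trp63 (1.49 to 1.54) and the leukocyte gene Ptprc (1.43 to 1.54) were above it in every charcoal serum group. The adipocyte gene Plin1 was above it with retinoic acid, TTNPB and GW1516 but not in charcoal controls. Across the 4 ligand comparisons 1 marker changed, Erbb2, which was lower with retinoic acid by a log2 difference of -0.43 (adjusted p = 0.0152); its part in the results was not tested.

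The first question was which of these receptor genes were expressed at all. Olfactory receptor (Olfr) genes served as background, since mammary carcinoma cells have no known use for them. The 95th percentile of the group means of 1105 Olfr genes, called the Olfr level here, was 1.15 in retinoic acid cells, 1.29 in TTNPB cells, 1.29 in GW1516 cells and 1.32 in the charcoal controls. In full medium it was 0.63 in palmitate cells and 0.59 in controls. The number of the 34 receptor genes above it was 17 for retinoic acid, 15 for TTNPB and 17 for GW1516, against 16 in charcoal controls, and 13 for palmitate, against 14 in full-medium controls. Among all genes the share above it ran between 44.7% (palmitate) and 52.8% (retinoic acid), close to the share of the receptor genes, which ran between 38.2% and 50.0% in the same groups.

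In all 6 groups, 13 of the 34 genes were above the Olfr level. They were the 2 REV-ERB genes Nr1d1 and Nr1d2, heme-binding repressors of the circadian clock, and Rorb, whose product activates through the same DNA element. They further included Nr4a1 and Nr4a2, immediate early genes that encode orphan receptors, the testicular orphan receptor genes Nr2c1 and Nr2c2, and Nr2f6 of the COUP-TF family. The others were Esrra, an orphan regulator of mitochondrial genes, the glucocorticoid receptor gene Nr3c1, the thyroid hormone receptor gene Thra, the vitamin D receptor gene Vdr and the steroidogenic factor gene Nr5a1. Nr5a1 was above the level only barely, at 1.20 ± 0.17 (SD, n = 3) with retinoic acid and 1.43 ± 0.09 in charcoal controls. Nr3c1 was far above it in charcoal serum but just over it in full medium, where it averaged 0.67 ± 0.11 with palmitate and 0.78 ± 0.11 in controls.

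At or under the Olfr level in every group were 13 genes. Among them were the estrogen receptor gene Esr1 and the progesterone receptor gene Pgr, the classical hormone receptors of mammary epithelium. Esr1 averaged 0.87 ± 0.11 (SD, n = 3) after retinoic acid, 0.87 ± 0.17 after TTNPB, 0.88 ± 0.23 after GW1516 and 0.89 ± 0.21 in charcoal controls, and 0.30 ± 0.04 with palmitate and 0.40 ± 0.02 in full-medium controls. Pgr lay between 0.99 and 1.18 in the charcoal groups. Thrb and Rora were also under the level, while Thra and Rorb of the same subfamilies were above it. The liver and gut receptor genes of the list were under it too, namely Hnf4a, Hnf4g, Nr1h4, which encodes the bile acid receptor FXR, Nr1i2, which encodes the xenobiotic receptor PXR, and Nr5a2. Nr0b1 and Nr0b2, whose products lack the usual DNA-binding domain, Nr2e1 and Esrrg completed the 13. Over these genes, group means ran from 0.66 to 1.18 in charcoal serum and from 0.14 to 0.52 in full medium.

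The other 8 genes crossed the level in 1 to 3 groups. Nr1i3 was above it only in charcoal controls, Nr2f1 only in full-medium controls, and Nr2f2 and Esrrb only with GW1516. Nr4a3 was above it with retinoic acid and GW1516, Esr2 with retinoic acid and TTNPB, Nr3c2 in 3 charcoal groups and Nr6a1 in 3. Where these 8 genes were above the level, they were above it by 0.53 (Nr6a1 with retinoic acid) or less, as the plot of group means over the Olfr level shows.

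**Figure D1:**
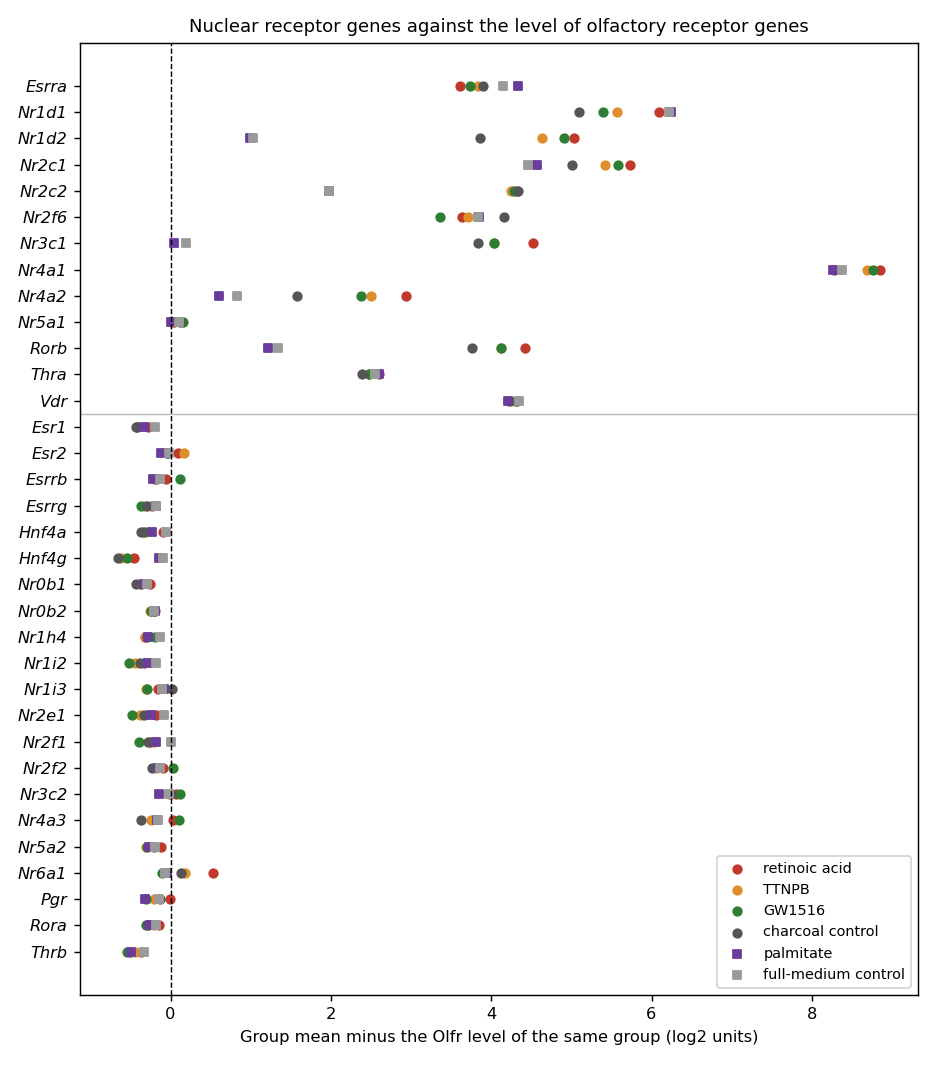
Group mean of each of the 34 receptor genes minus the Olfr level of the same group, in log2 units, with circles for charcoal serum and squares for full medium; the dashed line is the Olfr level. The 13 genes in the upper block were above the line in all 6 groups; the 21 below the grey line were at or under it in at least 3 groups. Distances of different genes come from different probe sets and are not compared.

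The next question was how each ligand moved these genes against its same-serum control. With retinoic acid 6 of 34 rose and none fell, that is Nr4a2, Nr1d2, Nr1d1, Nr2c1, Nr3c1 and Nr4a1. Among all 22180 genes 3.82% rose with retinoic acid and 5.29% changed in either direction. TTNPB raised 2 of 34, Nr1d2 and Nr4a1, beside 0.618% of all genes that rose and 1.26% that changed. GW1516 raised 3 of 34, Nr1d2, Nr4a1 and Nr4a3, beside 1.89% of all genes that rose and 2.57% that changed. These 3 comparisons share the charcoal controls. Palmitate changed none of the 34 by limma, beside 0.681% of all genes in either direction, and 0 of the 34 had an unadjusted p under 0.05, against 7.0% of all genes. That share of all genes rests on the arrays fitted: 151 genes passed with palmitate on all arrays, 1 on the arrays of full medium alone and 438 without GW1516 replicate 3. The median log2 difference over the 34 genes was -0.02 with retinoic acid, 0.02 with TTNPB, 0.02 with GW1516 and -0.04 with palmitate, against -0.03, 0.00, -0.01 and 0.00 over all genes. After quantile normalization within each serum the calls were 6 higher and 2 lower with retinoic acid, the falls being Nr2f6 and Esrra, 2 higher with TTNPB, and 4 higher and 1 lower with GW1516, the fall being Nr2f6. In that fit 5.88% of all genes passed with retinoic acid, 1.89% with TTNPB and 3.66% with GW1516, and falls made up 45.3% of the retinoic acid calls, against 27.8% before. Without GW1516 replicate 3 the fit called 6 higher and 1 lower with retinoic acid (Nr2f6), 4 higher with TTNPB and 4 higher with GW1516, beside 9.08%, 3.76% and 3.21% of all genes that passed in that fit.

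**Figure D2:**
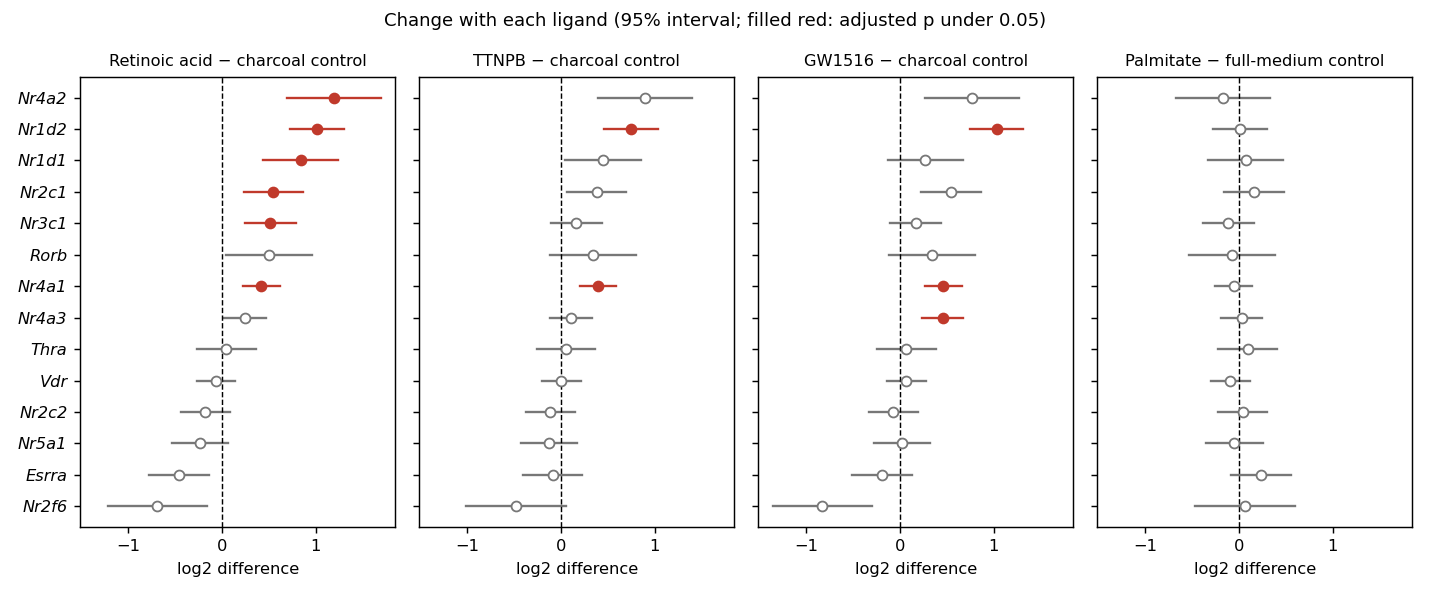
Log2 difference with its 95% interval for the 13 genes above the Olfr level in all groups and for Nr4a3, in each ligand comparison (ligand minus its same-serum control, 3 arrays each); filled red points passed an adjusted p of 0.05. Nr1d2 and Nr4a1 are filled in all 3 charcoal-serum panels and no gene is filled in the palmitate panel.

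The REV-ERB genes are described first, because Nr1d2 was called with each of the 3 ligands given in stripped serum. REV-ERB proteins repress clock genes such as Arntl by recruiting corepressors, and their own genes are switched on by the clock's E-box activators. Nr1d2 (probe set 17303625) lies on chromosome 14 from 18204056 to 18239106 on GRCm38.p6. Its log2 values were 6.17, 6.22 and 6.18 with retinoic acid, 5.98, 5.88 and 5.91 with TTNPB and 6.03, 6.18 and 6.40 with GW1516, against 5.43, 4.87 and 5.22 in charcoal controls. All 9 treated arrays were above all 3 control arrays. The rise was 2.02-fold with retinoic acid (log2 difference 1.02 ± 0.14 SE, adjusted p = 0.000202), 1.68-fold with TTNPB (0.75 ± 0.14, adjusted p = 0.00865) and 2.04-fold with GW1516 (1.03 ± 0.14, adjusted p = 0.000881). Without GW1516 replicate 3 the rise with GW1516 was 0.93 (adjusted p = 0.00132). With palmitate, the values were 1.74, 1.51 and 1.64, against 1.60, 1.56 and 1.69 in full-medium controls, and the groups overlapped (log2 difference 0.01, 95% interval -0.28 to 0.30). The call with TTNPB was lost without TTNPB replicate 1 (adjusted p = 0.0533).

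Nr1d1 (probe set 17268884, chromosome 11 from 98767932 to 98775377) encodes REV-ERBα. Its values were 7.23, 7.31 and 7.21 with retinoic acid, 6.82, 6.85 and 6.91 with TTNPB and 7.0, 7.09 and 5.96 with GW1516, against 6.38, 6.40 and 6.44 in charcoal controls. The retinoic acid and TTNPB arrays all lay above the controls, as did 2 of the 3 GW1516 arrays, while GW1516 replicate 3 lay below every control. Retinoic acid raised it 1.79-fold (log2 difference 0.84 ± 0.19 SE, adjusted p = 0.0128), a call lost without retinoic acid replicate 2 (adjusted p = 0.0629). With TTNPB the difference was 0.45 ± 0.19 (adjusted p = 0.351) and with GW1516 0.27 ± 0.19 (adjusted p = 0.534). Without GW1516 replicate 3, which widened the spread used for every comparison, both passed, at 0.45 ± 0.08 with TTNPB (adjusted p = 0.00241) and 0.63 ± 0.09 with GW1516 (adjusted p = 0.0007). With palmitate the values were 6.89, 6.75 and 6.99, against 6.67, 6.90 and 6.84 in full-medium controls, with overlapping groups (difference 0.07, interval -0.33 to 0.47). Nr1d1 overlaps the end of Thra over 1075 bases in the annotation, and Thra itself differed by 0.05, 0.06 and 0.07 with retinoic acid, TTNPB and GW1516.

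Rorb had values of 5.57, 5.71 and 5.45 with retinoic acid, 5.65, 5.34 and 5.26 with TTNPB and 5.8, 5.43 and 5.02 with GW1516, against 4.98, 5.04 and 5.20 in charcoal controls. Retinoic acid and TTNPB arrays lay above the controls and GW1516 arrays overlapped with them. None of these differences passed (0.50, 0.34 and 0.34, adjusted p = 0.239, 0.64 and 0.485). The overlap with GW1516 came from replicate 3, without which the difference was 0.54 (adjusted p = 0.189).

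Clock genes that work with REV-ERB and ROR were read from a list of 15, of which 14 had a probe set. With retinoic acid 3 of the 14 rose and none fell: Bhlhe40, a repressor of the clock (log2 difference 0.99, adjusted p = 2.06e-06), Per1, a core period gene (0.79, adjusted p = 0.000993), and Hlf, a PAR bZIP factor gene (0.46, adjusted p = 0.0115). With TTNPB 2 rose, Per1 (0.73, adjusted p = 0.00625) and Bhlhe40 (0.63, adjusted p = 0.000976). With GW1516 the same genes rose, Per1 by 0.57 (adjusted p = 0.0246) and Bhlhe40 by 0.52 (adjusted p = 0.00368). Bhlhe40 was also higher with retinoic acid than with GW1516 (0.47, adjusted p = 0.0175 by limma). That call was lost with a replicate block and without any 1 retinoic acid array. The median over the 14 was 0.41 with retinoic acid, 0.18 with TTNPB and 0.19 with GW1516, against medians over all genes of -0.03, 0.00 and -0.01. Shares of all genes that rose were 3.82% with retinoic acid, 0.618% with TTNPB and 1.89% with GW1516. The counts from the other lists below stand beside the same shares. Arntl, the REV-ERB target that encodes the activator BMAL1, differed by 0.04 with retinoic acid (adjusted p = 0.97). Arntl averaged 2.87 ± 0.07 with retinoic acid and 2.83 ± 0.52 in charcoal controls (SD, n = 3 each). In the same comparison 11 of the 14 genes had a positive difference. Nfil3, which did not pass, averaged 5.67 ± 0.16 with retinoic acid and 4.82 ± 0.29 in charcoal controls. With palmitate none of the 14 passed, and the median was 0.05. Hlf lost its call without charcoal control replicate 2 or retinoic acid replicate 3, and Per1 lost its call with GW1516 without charcoal control replicate 1 or 2 or GW1516 replicate 1, on the arrays of the same serum alone and with a replicate block (adjusted p up to 0.111).

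**Figure D3:**
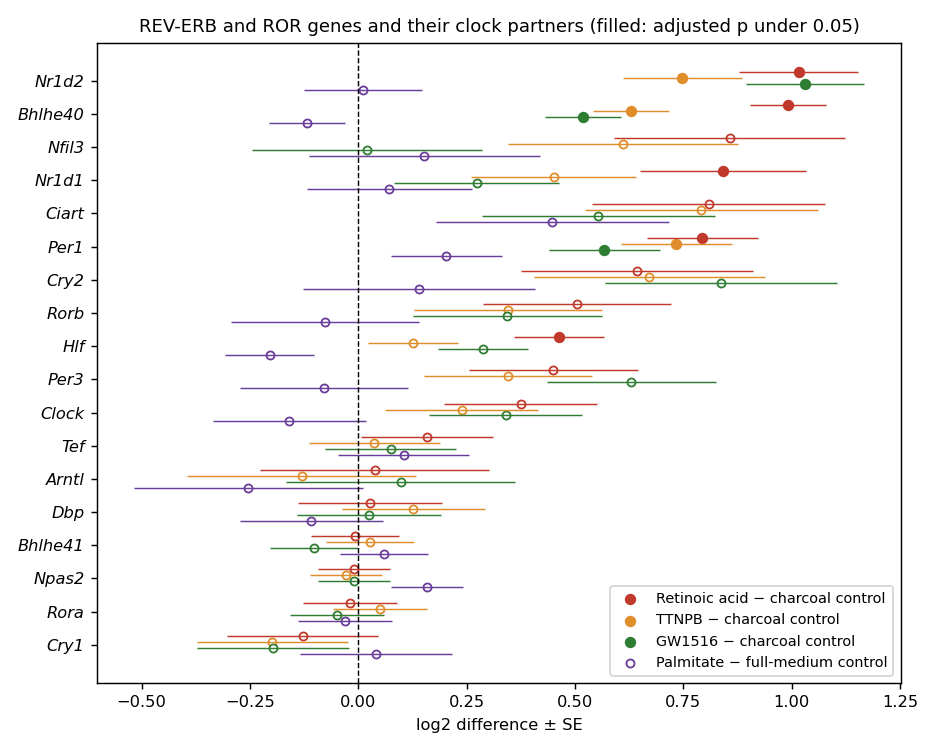
Log2 difference ± SE (ligand minus its same-serum control, 3 arrays each) for the REV-ERB and ROR genes and 14 clock genes; filled points passed an adjusted p of 0.05. Nr1d2, Bhlhe40 and Per1 are filled for retinoic acid, TTNPB and GW1516, and no palmitate point is filled.

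The NR4A genes encode orphan receptors that cells make within minutes to hours of many stimuli, cAMP signalling among them, and that bind DNA as monomers. Nr4a1 (NUR77, probe set 17315178) spans chromosome 15 from 101253902 to 101274795. Its values were 10.03, 9.99 and 10.01 with retinoic acid, 9.94, 9.99 and 10.03 with TTNPB and 9.89, 9.88 and 10.38 with GW1516, against 9.58, 9.57 and 9.61 in charcoal controls. Every treated array was above every control array. The rise was 1.34-fold with retinoic acid (log2 difference 0.42 ± 0.09 SE, adjusted p = 0.0102), 1.32-fold with TTNPB (0.40 ± 0.09, adjusted p = 0.0393) and 1.38-fold with GW1516 (0.46 ± 0.09, adjusted p = 0.0117). Without GW1516 replicate 3, its highest GW1516 value, the rise with GW1516 was 0.30 (adjusted p = 0.000739). The call with TTNPB was lost under 4 of 6 other settings and without any 1 of 14 arrays, with adjusted p up to 0.144. With GW1516 it was lost without charcoal control replicate 2 (adjusted p = 0.0539). Palmitate arrays read 8.95, 8.89 and 8.87, against 8.99, 8.92 and 8.95 in full-medium controls (difference -0.06, interval -0.25 to 0.14).

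Nr4a2 (NURR1, probe set 17385374, chromosome 2 from 57106830 to 57124003) showed the largest log2 difference of the 34 genes with retinoic acid. The values were 3.91, 4.21 and 4.15 with retinoic acid, 3.50, 3.94 and 3.93 with TTNPB and 4.17, 3.46 and 3.36 with GW1516, against 3.26, 2.30 and 3.11 in charcoal controls. All treated arrays were above all controls, of which replicate 2 was the lowest. Retinoic acid raised it 2.29-fold (1.19 ± 0.24 SE, adjusted p = 0.00556), and 1.86-fold and 1.71-fold were measured with TTNPB and GW1516 but did not pass (0.90 ± 0.24, adjusted p = 0.0806, and 0.77 ± 0.24, adjusted p = 0.0984). With TTNPB it passed without GW1516 replicate 3 (adjusted p = 0.0308). Palmitate arrays read 1.11, 1.05 and 1.56, against 1.37, 1.34 and 1.52 in full-medium controls, and overlapped with them.

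Nr4a3 (NOR1, probe set 17413945) was at the edge of detection. Its values were 1.39, 0.99 and 1.19 with retinoic acid, 1.11, 1.12 and 0.92 with TTNPB and 1.48, 1.31 and 1.41 with GW1516, against 0.86, 1.00 and 0.97 in charcoal controls. The GW1516 arrays were all above the controls and above the Olfr level of their group, 1.29, and the control arrays were all under theirs. With the controls under the Olfr level the size of the change is not an exact value and no fold is given. The fitted difference with GW1516 was 0.46 ± 0.11 SE (adjusted p = 0.0258), and it was 0.25 with retinoic acid (adjusted p = 0.229) and 0.11 with TTNPB (adjusted p = 0.828). The call was lost without any 1 charcoal control, without GW1516 replicate 1, on the arrays of the same serum alone and with a replicate block (adjusted p up to 0.0999).

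**Figure D4:**
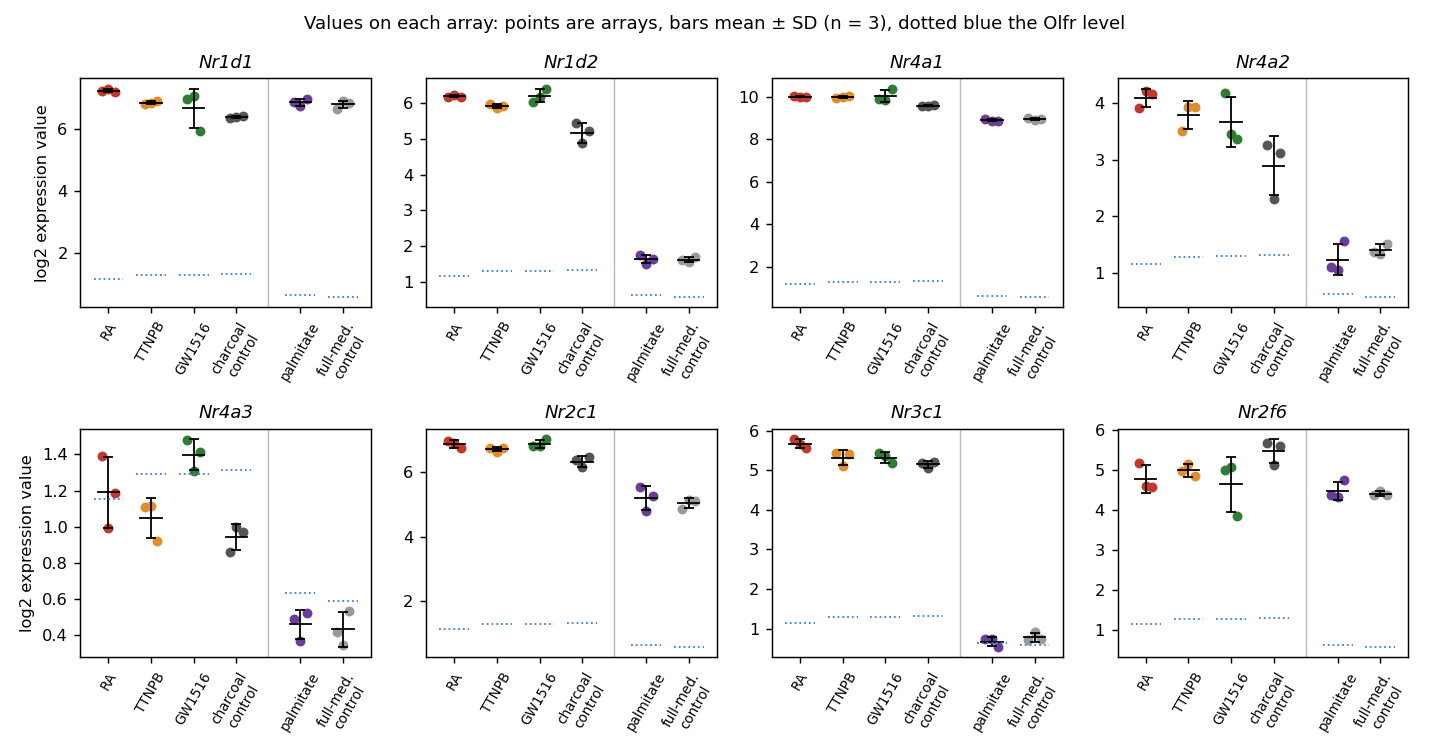
Log2 expression value on every array (points), with mean ± SD (n = 3), for the 7 genes that changed with a ligand and for Nr2f6; dotted blue lines mark the Olfr level, and the grey line separates the charcoal serum set from the full medium set, whose scales differ. Nr1d1 and Nr2f6 show GW1516 replicate 3 as a low point, at 5.96 and 3.86.

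Because Nr1d2 and the NR4A genes moved in the same direction with several ligands, the 250 bases before their RefSeq starts (GRCm38.p6) were searched on both strands for 5 motifs. These were AGGTCA, the core element of nuclear receptors, CACGTG, the E-box of clock activators, TGACGTCA, the full cAMP response element, TGACG, its short form, which the full element contains, and AAAGGTCA, the element of NR4A monomers, which contains AGGTCA. Promoters are shown 5′ to 3′ on the gene's strand, with capitals for matches to the core element, the E-box and the short cAMP element in either orientation.

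Nr1d2 (chr14:18239107-18239356, minus strand): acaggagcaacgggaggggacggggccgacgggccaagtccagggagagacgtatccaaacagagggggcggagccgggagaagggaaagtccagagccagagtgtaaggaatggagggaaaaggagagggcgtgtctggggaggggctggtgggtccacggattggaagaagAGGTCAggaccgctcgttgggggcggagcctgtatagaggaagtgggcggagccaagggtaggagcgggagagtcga

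Nr4a1 (chr15:101266596-101266845, plus strand): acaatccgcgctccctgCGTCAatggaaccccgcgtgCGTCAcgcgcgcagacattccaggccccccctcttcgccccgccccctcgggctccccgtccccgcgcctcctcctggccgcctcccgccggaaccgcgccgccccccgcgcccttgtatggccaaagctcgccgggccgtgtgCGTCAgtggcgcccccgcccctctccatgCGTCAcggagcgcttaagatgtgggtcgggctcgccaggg

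Nr4a2 (chr2:57124004-57124253, minus strand): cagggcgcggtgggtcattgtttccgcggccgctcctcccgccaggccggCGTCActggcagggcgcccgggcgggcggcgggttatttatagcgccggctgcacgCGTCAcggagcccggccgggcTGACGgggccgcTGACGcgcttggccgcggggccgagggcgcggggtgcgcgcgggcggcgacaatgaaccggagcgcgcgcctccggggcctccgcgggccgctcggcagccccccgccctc

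The Nr1d2 promoter held 1 AGGTCA, 77 to 72 bases before the start, a motif found in 14.0% of 32536 promoters. Nr4a1 held 4 copies of TGACG or its reverse complement, beginning 233, 213, 69 and 40 bases before the start, and Nr4a2 held 4, beginning 200, 144, 123 and 111 bases before it. The promoter of Nr4a3 in the same table held 4 as well. At least 1 copy was in 17.9% of all promoters and at least 4 copies in 0.138%, and no promoter of the other receptor genes held 4. The window before Nr1d1 held none of the 5 motifs. AAAGGTCA was in 1.35% of promoters, and TGACGTCA in 1.56%, neither among these 5 genes. CACGTG was in 6.04% of promoters, also in none of these 5. For Nr4a1 the start used lies inside the annotated span of the gene, so other starts have other upstream sequence. Whether any of these motifs took part in the changes with the ligands was not tested.

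Nr2c1 (TR2, probe set 17236662, chromosome 10 from 94147542 to 94197216) encodes an orphan receptor that binds direct repeats of the nuclear receptor element, as its partner TR4, the product of Nr2c2, does. Nr2c1 values were 6.98, 6.92 and 6.75 with retinoic acid, 6.74, 6.64 and 6.75 with TTNPB and 6.81, 6.80 and 7.02 with GW1516, against 6.39, 6.15 and 6.46 in charcoal controls. All treated arrays were above the controls. Retinoic acid raised it 1.46-fold (log2 difference 0.55 ± 0.15 SE, adjusted p = 0.0393), while 0.38 with TTNPB (adjusted p = 0.304) and 0.55 with GW1516 (adjusted p = 0.0628) did not pass. The GW1516 difference passed on the arrays of the same serum (adjusted p = 0.0265), after quantile normalization (0.028), with dim genes left out (0.0341) and without palmitate replicate 1 or 2 (0.0362 and 0.0195). The retinoic acid call was lost with a replicate block (adjusted p = 0.0716) and without any 1 of 9 arrays, namely those of retinoic acid, TTNPB and the charcoal controls (up to 0.183). Nr2c2 differed by -0.18 with retinoic acid, -0.11 with TTNPB and -0.07 with GW1516, and each 95% interval lay within 1.5-fold of no change.

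Nr3c1 (probe set 17353985, chromosome 18 from 39410545 to 39519421) encodes the glucocorticoid receptor, a steroid-activated factor of nearly all cells. Its values were 5.79, 5.67 and 5.56 with retinoic acid, 5.44, 5.11 and 5.41 with TTNPB and 5.42, 5.37 and 5.18 with GW1516, against 5.19, 5.06 and 5.21 in charcoal controls. The retinoic acid arrays were above all the others of the charcoal set, and the TTNPB and GW1516 arrays overlapped with the controls. Retinoic acid raised it 1.43-fold (0.52 ± 0.13 SE, adjusted p = 0.0227), and the differences with TTNPB and GW1516 were both 0.17 (adjusted p = 0.744 and 0.576). The call was lost without charcoal control replicate 1 or 2 or retinoic acid replicate 1 or 2 (adjusted p up to 0.115). Of 12 genes known as glucocorticoid receptor targets, 2 rose with retinoic acid, Klf9, which encodes a Krüppel-like factor (0.89, adjusted p = 0.00338), and Per1, which the clock list also holds. With TTNPB and with GW1516 1 of the 12 rose, Per1 in each case. Fkbp5, Tsc22d3 and the other members of that list did not pass with any ligand.

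Nr2f6 (EAR2, probe set 17510280) encodes a COUP-family receptor that mostly represses. Its values were 5.19, 4.61 and 4.57 with retinoic acid, 4.98, 5.16 and 4.85 with TTNPB and 5.00, 5.08 and 3.86 with GW1516, against 5.69, 5.13 and 5.61 in charcoal controls. GW1516 arrays were all below the controls, and the other groups overlapped with them. The differences were -0.68 ± 0.25 (SE) with retinoic acid, -0.48 with TTNPB and -0.82 with GW1516, none of which passed (adjusted p = 0.151, 0.529 and 0.0954). After quantile normalization the differences of -0.80 with retinoic acid and -0.84 with GW1516 passed (adjusted p = 0.0288 and 0.0329). On the deposited scale the difference with GW1516 passed without GW1516 replicate 2 (-1.04, adjusted p = 0.0414). Leaving out GW1516 replicate 3 gave a difference with GW1516 of -0.43 (adjusted p = 0.237), and then -0.68 with retinoic acid passed (adjusted p = 0.0125).

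Esrra read 4.6, 4.77 and 4.93 with retinoic acid, against 5.24, 5.28 and 5.14 in charcoal controls, all below them, with a difference of -0.46 ± 0.15 (SE, adjusted p = 0.1). It passed after quantile normalization (-0.58, adjusted p = 0.0201). Of 11 measured ERR targets and PGC-1 coactivator genes, 1 rose with each of the 3 ligands, Ppargc1a, which encodes the ERR coactivator PGC-1α. It rose by 0.54 with retinoic acid (adjusted p = 0.000896), 0.36 with TTNPB (adjusted p = 0.0481) and 0.69 with GW1516 (adjusted p = 0.000514). The TTNPB call was lost without any 1 of 15 arrays, on the arrays of the same serum alone and with a replicate block (adjusted p up to 0.166).

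Vdr and Thra had narrow intervals around no change. Vdr averaged 5.47 ± 0.06 after retinoic acid, 5.54 ± 0.07 after TTNPB, 5.60 ± 0.07 after GW1516 and 5.53 ± 0.09 in charcoal controls, and 4.84 ± 0.08 with palmitate and 4.93 ± 0.04 in full-medium controls (SD, n = 3 each). For Vdr, Thra, Nr2c2 and Nr5a1, the 95% intervals lay within 1.5-fold of no change in each of the 4 ligand comparisons. Nr5a1 was only barely above the Olfr level, so a change in its transcript may not have been measurable. Of 9 measured targets of the thyroid hormone and vitamin D receptors 1 rose with retinoic acid, Klf9, which the glucocorticoid list also holds, and none passed with the other ligands. Among 9 estrogen receptor targets and partners, and among 8 targets of bile acid and xenobiotic receptors, none passed with any ligand.

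The 21 genes that were not above the Olfr level in all groups gave 1 call, that of Nr4a3 with GW1516. The differences of the rest lay between -0.34 and 0.25 with retinoic acid, -0.35 and 0.19 with TTNPB, -0.34 and 0.28 with GW1516 and -0.14 and 0.08 with palmitate. At such signals a change in transcript level may not be measurable. For the 13 genes above the level, palmitate differences lay between -0.17 (Nr4a2) and 0.24 (Esrra). An interval within 1.5-fold of no change was found for 11 of the 13, the exceptions being Nr4a2 and Nr2f6. Nr3c1 and Nr5a1 were among the 11, and both lay close to the Olfr level, where the same limit holds. Whether palmitate acted differently from the ligands given in stripped serum was not tested, since medium and array set differ too.

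Set directly against one another at the same dose and time, the 3 ligands gave no difference past the threshold in any of the 34 genes by limma, over 3 pairs with p-values adjusted within each pair. Of all genes, 0.153% passed for retinoic acid against TTNPB, 0.352% for retinoic acid against GW1516 and 0.0676% for TTNPB against GW1516. At an unadjusted p under 0.05 there were 2 of the 34 receptor genes (5.88%, against 7.27% of all genes), 4 (11.8%, against 9.3%) and 3 (8.82%, against 10.5%) in the same pairs. Retinoic acid and TTNPB are both RAR agonists, and in TTNPB aromatic rings replace much of the polyene chain. Between them Nr1d1 differed by 0.39 (95% interval -0.01 to 0.79, adjusted p = 0.702), Nr3c1 by 0.35 (0.08 to 0.62, adjusted p = 0.495), Nr4a2 by 0.30 (-0.20 to 0.80, adjusted p = 0.85) and Nr1d2 by 0.27 (-0.02 to 0.56, adjusted p = 0.717). Nr4a1 differed by 0.02 (-0.17 to 0.22, adjusted p = 0.981). Without GW1516 replicate 3 the Nr1d1 difference passed (0.39 ± 0.08 SE, adjusted p = 0.0259). Between retinoic acid and GW1516, Nr1d2 differed by -0.01 (-0.30 to 0.27) and Nr1d1 by 0.57 (0.17 to 0.97, adjusted p = 0.339). With GW1516 replicate 3 left out these were 0.08 (-0.21 to 0.38) and 0.21 (0.02 to 0.39, adjusted p = 0.609). Between TTNPB and GW1516, Nr4a3 differed by -0.35 (-0.57 to -0.13, adjusted p = 0.272).

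Of the remaining receptor genes of the family, the retinoic acid, RXR, PPAR and LXR receptors and others, 11 of 14 had a probe set of their own. With retinoic acid 1 rose, Rarb (1.18, adjusted p = 0.000448), with TTNPB none passed, with GW1516 1 rose, Rara (0.63, adjusted p = 0.0424), and with palmitate 1 rose, Rxrb (0.66, adjusted p = 0.0309). The calls of Rara and Rxrb were lost on the arrays of the same serum alone and with a replicate block. That of Rara was also lost after quantile normalization. With 1 array left out at a time, Rara kept its call in 5 of 18 fits and Rxrb in 12 of 18. The fit without GW1516 replicate 3 was among those in which Rara lost its call. Over all these fits the adjusted p by limma reached 0.141 for Rara and 0.201 for Rxrb. Rarb was also higher with retinoic acid than with GW1516 (1.02, adjusted p = 0.00978 by limma). That call was lost on the arrays of the same serum alone, with a replicate block and without retinoic acid replicate 1.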

How the data were processed

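The deposited table holds a log2 expression value for each of 41345 probe sets on each of 18 arrays; the log2 unit was inferred from how the values are distributed. Per the submitters' processing notes Partek was used; its version, normalization and probe summary are not given in the sources used here. Precision is limited by the number of arrays.

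Probe sets with 1 gene symbol (23521) were kept, while 1814 that carry several symbols and 16010 that carry none were not used. Symbols were checked by Entrez number against GRCm38.p6 for 23328 probe sets, and for the 1082 genes with several probe sets the one with the highest mean was used. No filter on signal was applied. One limma model (version 3.58.1, R 4.3.3) estimated 6 group means from the 18 arrays together, using a trended variance prior and leaving 12 residual degrees of freedom. P-values were 2-sided and adjusted by Benjamini-Hochberg over the 22180 genes of a comparison, and called under 0.05. Folds were taken from the log2 differences. The code was tested on simulated data.

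The genes, lists and tests were chosen with earlier results of these data known. Every listed receptor gene is named; those that passed in any comparison are given array by array, as were Nr2f6, Rorb and Esrra, chosen after their values were seen. From each list the genes that passed are named, and Arntl, Nfil3, Fkbp5 and Tsc22d3 were named outside that rule. Promoter sequences are from RefSeq; 31 of the 35 listed receptor genes were found there by symbol. Other settings were the arrays of 1 serum only, the replicate number as a block, no variance trend, quantile normalization, dim genes left out, the mean of all probe sets and each array left out. Same-numbered arrays of different groups had correlations of their deviations between -0.28 and 0.21, over 0.1 for 5 of 21 pairs, so the numbers were not taken to pair the arrays. In pairs of replicate arrays at most 2.3% of genes had identical values (within 1e-06).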

Additional observations from a re-analysis of the deposited data

How the results depend on the processing

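Of the 11 calls of receptor genes, 4 held under every other setting and without each array in turn, 8 held under every setting other than leaving out arrays, and none changed direction. Of the 16 calls of list genes, 9 held throughout and none changed direction. The count with TTNPB was 2, and it was 1 on the arrays of the same serum, 1 with a replicate block and 1 without a variance trend. The count with GW1516 was 3, and it was 5 after quantile normalization. With a replicate block the count was 5 with retinoic acid (6 without), 2 with GW1516 (3 without) and 0 with palmitate, a fit in which the numbers do not pair the arrays. Leaving out 1 array at a time gave 3 to 7 calls with retinoic acid (3 without retinoic acid replicate 2), 0 to 4 with TTNPB (0 without TTNPB replicate 1, 4 without GW1516 replicate 3), 1 to 4 with GW1516 (1 without charcoal control replicate 2) and 0 to 1 between retinoic acid and TTNPB. With TTNPB, leaving out any array of retinoic acid, the charcoal controls or the full-medium controls, TTNPB replicate 2 or 3, or palmitate replicate 1 or 3 left 1 call, Nr1d2. Quantile normalization moved the share of rises among all calls to 54.7% with retinoic acid (72.2% before), 58.9% with GW1516 (73.5% before), 33.3% with palmitate (21.2% before), 51.4% between retinoic acid and TTNPB (70.6% before) and 66.4% between retinoic acid and GW1516 (80.8% before). Over all genes, a replicate block gave 149 calls with TTNPB (279 without), 312 with GW1516 (570 without), 85 with palmitate (151 without), 18 between retinoic acid and TTNPB (34 without), 31 between retinoic acid and GW1516 (78 without) and 5 between TTNPB and GW1516 (15 without). With dim genes left out there were 479 with TTNPB, 918 with GW1516, 233 with palmitate and 125 between retinoic acid and GW1516. On the arrays of the same serum there were 1 with palmitate, 40 between retinoic acid and GW1516 and 7 between TTNPB and GW1516. Without GW1516 replicate 3 there were 2015 with retinoic acid (1174 with it), 833 with TTNPB, 438 with palmitate, 131 between retinoic acid and TTNPB and 45 between TTNPB and GW1516. Over single arrays left out, the lowest counts were 583 with retinoic acid (without its replicate 2), 112 with TTNPB (without its replicate 1), 198 with GW1516 (without charcoal control replicate 2) and 62 with palmitate (without full-medium control replicate 3). The cause was not tested. Nr4a3 was left out with the dim genes. With the 99th percentile of Olfr genes 13 receptor genes were above background for retinoic acid, 12 for TTNPB, 12 for GW1516, 12 in charcoal controls, 11 for palmitate and 11 in full-medium controls.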
